A study of Mus musculus with 15 samples.

Results

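The polypeptide N-acetylgalactosamine (GalNAc) transferases are described here through 10 of their genes, *Galntl6*, *Galnt1*, *Galnt2*, *Galnt7*, *Galnt9*, *Galnt11*, *Galnt13*, *Galnt14*, *Galnt16* and *Galnt18*, out of 28391 genes with a row in at least 1 of 2 deposited sets of normalized counts, one for the *Lhx6* and one for the *Mtg8* comparison. The genes were chosen by family name around *Galntl6*, which was picked on its difference between mutant and control libraries in the same tables. The differences of these genes are therefore given as a description, with their standard errors and with no test. The *Lhx6* table held a row for all 10 genes. *Galnt2* was not analysed here for the *Mtg8* comparison, which leaves 9. For both comparisons 9 genes reached a mean normalized count of 10, the minimum used for tests across genes.

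These enzymes sit in the Golgi apparatus and start mucin-type O-glycosylation. Each moves GalNAc from the donor UDP-GalNAc to a serine or threonine of a passing protein, and other enzymes then extend that first sugar or cap it with sialic acid. Some members act on bare peptides, and others prefer peptides that already carry a GalNAc. Secreted proteins and cell surface receptors of neurons are among the proteins modified in this way.

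Interneurons born in the medial ganglionic eminence (MGE) migrate into the cortex of the embryo. They were labelled with YFP, by an Nkx2-1-Cre transgene and a R26R-YFP fl/fl reporter that all embryos carried, and were sorted from the cortex at E14.5 on a C57BL/6 and CBA mixed background. *Lhx6* controls (Lhx6+/+, 4 libraries) were compared with *Lhx6* mutants (Lhx6-/-, a germline loss-of-function allele, 5 libraries), and *Mtg8* controls (Mtg8+/+, 3 libraries) with libraries labelled *Mtg8* mutant (Mtg8-/-, a LacZ knock-in allele, 3 libraries). By the study's methods mutants were littermates of controls, each library came from 1 embryo and sexes were mixed. As background, a Cre reporter marks cells by their origin and not by their state at the time of sorting. The comparisons ask which genes LHX6, a LIM homeodomain factor of MGE interneurons, and MTG8, a transcriptional corepressor, affect in these cells.

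Libraries of the *Lhx6* comparison held 12218422 to 18110287 counted reads, and those of the *Mtg8* comparison 16139978 to 22053032. *Lhx6* itself had 5812 to 8441 normalized counts in controls and 236 to 494.6 in mutants. *Runx1t1*, the gene of MTG8, went against the labels, with 7938 to 10260 in *Mtg8* controls and 12250 to 13930 in the libraries labelled *Mtg8* mutant, so these are named by their label throughout. The count covers the whole gene, so which part of the transcript was read cannot be seen from it. Of other genes of the same libraries, *Sst* and *Npy* were looked at after their values were seen. They were lower in all 3 labelled mutants than in all 3 controls, at 5683 to 8048 against 14420 to 18500 for *Sst* (adjusted p = 0.0713 by limma, 0.109 by edgeR and 9.25e-06 by DESeq2) and 1952 to 3577 against 5037 to 6247 for *Npy* (adjusted p = 0.58, 0.566 and 0.0247), the same direction as in *Lhx6* mutants. By in situ hybridization, the paper reports fewer *Sst* and *Npy* cells in the cortex of Mtg8-/- embryos. With the same method the paper could not detect *Galntl6*, so its difference was not checked in tissue. Library names came in 2 styles, with or without a date, and what the styles mean is not given. All 4 *Lhx6* controls and mutant 6 had undated names while mutants 1, 2, 3 and 5 had dated ones, so within the *Lhx6* table only mutant 6 can be set against controls of its own style. Names also held a code whose meaning is not given. *Lhx6* controls 1 and 2 and mutant 6 shared a code, while *Lhx6* mutants 1, 2, 3 and 5 shared none with any control. In the *Mtg8* table controls 1 and 2 and labelled mutant 2 shared a code, and the other 3 libraries shared none.

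Markers of MGE interneurons and of other cell types also moved with the groups. The summed level of 16 MGE interneuron markers was lower in *Lhx6* mutants (32360 to 53600) than in controls (53940 to 66010), and lower in the libraries labelled *Mtg8* mutant (53490 to 69390) than in theirs (84310 to 89970). Without *Lhx6*, *Sst* and *Npy* the *Lhx6* ranges overlapped (32580 to 42930 and 29790 to 50270) and the *Mtg8* ranges did not (55470 to 55740 and 34030 to 53370). Of the 16 markers, 9 had a log2 difference below 0 and 7 above 0 for *Lhx6*, with a median of -0.3. By limma at an adjusted p under 0.05, 5 were lower and *Dlx5* was higher (mean 2132 in controls and 4358 in mutants). For *Mtg8*, 13 were below 0 and 3 above 0, with a median of -0.31, and limma found 0 at that threshold. The list includes *Dlx1*, *Dlx2*, *Dlx5*, *Gad1*, *Gad2* and *Erbb4*, so its sum does not measure MGE identity alone. In the *Mtg8* table mean *Dlx1*, an abundant gene of the sum, was 19370 in controls and 12630 in labelled mutants, while *Dlx2* was 775.2 and 2511. The sum of 7 markers of interneurons from the caudal ganglionic eminence was 1698 to 2052 in *Lhx6* controls and 2401 to 3181 in mutants, but 4 of the 7 lay below 0, with a median log2 difference of -0.59. By limma, at an adjusted p under 0.05 (a call, here and below), and with these genes named after their values were seen, *Adarb2* was higher (mean 31.48 in controls and 636.6 in mutants) and *Npas1* (484.4 and 119.9) and *Htr3a* (221.9 and 78.79) were lower, so the higher sum came from *Adarb2*, *Nr2f2* (721.2 and 1361) and *Sp8* (206.4 and 494.8). In the *Mtg8* table the same sum was 1731 to 1879 in controls and 2059 to 2653 in labelled mutants, with 6 of 7 above 0 and a median of 0.59, and limma called 0 of them. The sum of 8 radial glia markers there was 6018 to 7406 in controls and 7859 to 12230 in labelled mutants, with 7 of 8 above 0 (*Sox2* was the exception at -0.34) and again 0 called by limma. Sums for pyramidal, endothelial, microglial, oligodendrocyte precursor and red blood cell markers overlapped between groups in both tables. In the *Mtg8* table, however, log2 differences were above 0 for 11 of 11 pyramidal markers (median 0.5, sums of 5843 to 14270 and 9146 to 23030), 4 of 4 oligodendrocyte precursor markers that reached the minimum (median 2.03, sums of 6.399 to 304.2 and 50.98 to 525.9) and 5 of 5 red blood cell markers (median 0.35, sums of 10840 to 27160 and 15490 to 31660), while limma called 0 of them. Limma called 0 of all 16132 genes in the *Mtg8* table (smallest adjusted p = 0.0673), so a count of 0 there does not set these lists apart from other genes. For *Lhx6*, 7 of 11 pyramidal and 5 of 5 red blood cell markers lay below 0, with medians of -0.14 and -0.67, and limma again called 0. Pyramidal sums were 16990 to 22540 in *Lhx6* controls and 13470 to 18360 in mutants, and red blood cell sums 5966 to 58610 and 1798 to 20400. Markers of other cell types were thus read in the sorted samples, and the levels given below were not corrected for this.

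*Galntl6* lies on the minus strand of chromosome 8 (GRCm38, 57774052 to 58912640), where its 21 merged exons hold 7414 bases within 1138.6 kb. *Galnt7* is its neighbour on the same strand (57523828 to 57653032), with 121.0 kb between the 2 genes. *Galnt9* lies on the plus strand of chromosome 5 (110544355 to 110621380). Start regions are shown for these 3 genes because *Galntl6* had the lowest mutant levels relative to controls in both tables, *Galnt9* was the other member whose groups stood apart, and *Galnt7* is the neighbour of *Galntl6*. The sequences are from RefSeq on GRCm38.p6 and run from 250 bases before a start to 50 bases after it. Capitals mark the letters ATTA on either strand, a core shared by many homeodomain binding motifs:
Galntl6, chr8:58911578-58911877, minus strand: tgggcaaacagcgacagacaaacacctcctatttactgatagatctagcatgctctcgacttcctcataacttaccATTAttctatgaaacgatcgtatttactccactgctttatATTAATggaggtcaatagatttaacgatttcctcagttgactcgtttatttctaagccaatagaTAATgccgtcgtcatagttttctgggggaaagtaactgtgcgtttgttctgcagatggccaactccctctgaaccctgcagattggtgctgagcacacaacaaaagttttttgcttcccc
Galnt7, chr8:57653006-57653305, minus strand: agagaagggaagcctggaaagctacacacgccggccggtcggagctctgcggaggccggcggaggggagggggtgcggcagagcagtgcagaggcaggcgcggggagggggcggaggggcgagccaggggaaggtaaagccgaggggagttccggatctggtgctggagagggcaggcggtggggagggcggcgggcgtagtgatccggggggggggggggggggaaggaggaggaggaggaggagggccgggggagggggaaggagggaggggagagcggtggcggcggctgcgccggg
Galnt9, first start, chr5:110544105-110544404, plus strand: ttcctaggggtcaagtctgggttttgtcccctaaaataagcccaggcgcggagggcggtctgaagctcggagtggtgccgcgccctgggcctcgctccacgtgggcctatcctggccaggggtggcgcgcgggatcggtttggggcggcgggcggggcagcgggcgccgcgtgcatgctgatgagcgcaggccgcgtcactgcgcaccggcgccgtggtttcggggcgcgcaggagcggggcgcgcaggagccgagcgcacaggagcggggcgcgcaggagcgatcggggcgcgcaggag
Galnt9, second start, chr5:110603255-110603554, plus strand: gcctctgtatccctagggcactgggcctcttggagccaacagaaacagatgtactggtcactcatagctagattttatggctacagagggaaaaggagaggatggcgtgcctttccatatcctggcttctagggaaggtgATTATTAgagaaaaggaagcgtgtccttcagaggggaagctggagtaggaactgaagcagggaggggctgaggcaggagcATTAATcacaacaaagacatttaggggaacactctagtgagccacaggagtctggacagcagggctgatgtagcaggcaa

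The 4 sequences differed in base composition. The *Galntl6* window held 41.7% G and C with 9 CG dinucleotides, below the median of 52.7% over 32851 promoter windows of the same length, and 13.4% of those windows had less. The *Galnt7* window held 75% with 25 CG dinucleotides. The first *Galnt9* window held 73.7% with 41 CG dinucleotides and the second held 51% with 2. ATTA occurred 4 times in the *Galntl6* window and 4 times in the second *Galnt9* window, overlapping occurrences included, and not in the other 2. It occurs at least once in 58% of all windows and at least 4 times in 11.6%. The longer motif TAATTA, which contains ATTA on both strands, was in 5.29% of all windows and in 0 of the 11 windows found for 7 members. These matches describe the windows and show no binding.

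*Galntl6*, whose product is named for its likeness to the transferases, was below the lowest control in every *Lhx6* mutant and in all 3 libraries that carry the label *Mtg8* mutant. In the *Lhx6* table, controls 1 to 4 had 103.8, 120.5, 95.81 and 132.6 normalized counts. Mutants 1, 2, 3, 5 and 6 had 12.37, 47.2, 49.36, 13.56 and 63.15. The highest mutant was thus below the lowest control, and mutants 1 and 5 lay well below the other 3. The mutant mean of 37.13 ± 22.89 (SD, n = 5) was 32.81% of the control mean of 113.2 ± 16.52 (SD, n = 4), a difference of -1.85 on the log2(normalized count + 1) scale (SE 0.48), which ranged from -2.11 to -1.55 as each library was left out. Mutant 6, the one library whose name style matched the controls, gave -0.82 against them, and also -0.82 against controls 1 and 2, whose name code it shared.

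The *Mtg8* table gave a like picture. Controls 1, 2 and 4 had 140.8, 245.3 and 163.4 normalized counts of *Galntl6*. The libraries labelled *Mtg8* mutant 2, 3 and 4 had 58.91, 33.09 and 63.45. The groups again did not overlap, and control 2 was the highest library. The labelled mutants' mean of 51.81 ± 16.38 (SD, n = 3) was 28.29% of the control mean of 183.2 ± 54.97 (SD, n = 3), a log2 difference of -1.82 (SE 0.35), with a range of -1.99 to -1.53 as each library was left out. Within libraries with dated names, which share a name code, it was -1.64 and within undated ones -1.81. In these sorted bulk samples, fewer cells that express a gene and less RNA per cell cannot be told apart, and the part of the marker shifts given above in any member's difference was not tested.

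**Figure D1:**
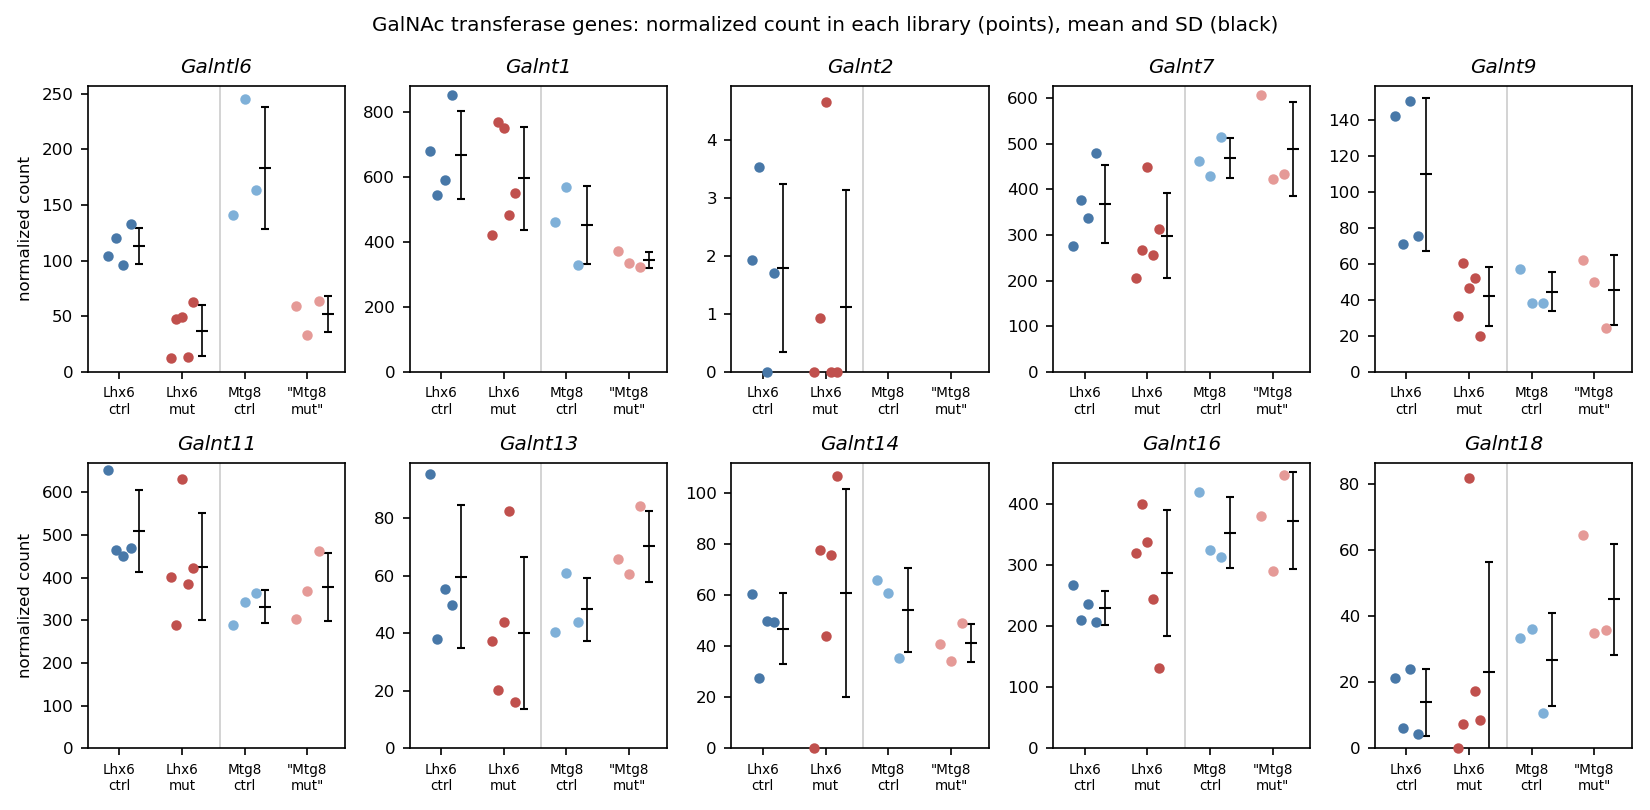
Normalized count of each of the 10 genes (vertical axes, from 0) in the 4 groups of libraries (ctrl, control; mut, mutant; quotation marks, libraries labelled *Mtg8* mutant), with 1 point per library and the mean and SD in black; SD bars that would pass below 0 stop at the axis. *Galntl6* is the member whose *Lhx6* mutants and libraries labelled *Mtg8* mutant all lie below the controls of their table, *Galnt9* shows this in the *Lhx6* table alone, and *Galnt2* has no values in the *Mtg8* table.

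*Galnt9*, a transferase best known from brain, was the other member whose groups stood apart, in the *Lhx6* table. Controls 1 to 4 had 142.3, 70.9, 150.2 and 75.26 normalized counts. Mutants 1, 2, 3, 5 and 6 had 30.94, 60.16, 46.57, 52.31 and 19.81. The controls fell into a higher and a lower pair, and the gap between control 2 and mutant 2 was small beside that spread. The mean was 109.6 ± 42.39 in controls (SD, n = 4) and 41.96 ± 16.37 in mutants (SD, n = 5), a log2 difference of -1.38 (SE 0.39), and mutant 6 alone gave -2.33 against the controls and -2.29 against the pair that shared its name code. *Galnt9* in the 3 *Mtg8* controls was at 57.01, 38.39 and 38.15 and in the labelled mutants at 62.31, 49.63 and 24.46. These groups overlapped fully, with means of 44.52 ± 10.82 and 45.47 ± 19.26 (SD, n = 3 each).

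How often genes at large behaved in this way sets the scale for these counts. In the *Lhx6* table groups did not overlap, with mutants lower, for 2 of the 9 members that reached the minimum, where 3.03% of all 16727 genes showed this. In the *Mtg8* table groups did not overlap, with the labelled mutants lower, for *Galntl6* alone, where 5.52% of all 16132 genes showed this. Since *Galntl6* was picked from these contrasts, nothing is read from these counts. Log2 differences were below 0 for 8 of the 9 members in the *Lhx6* table, with a median of -0.32, where 53.4% of all genes lay below 0. By DESeq2 on the recovered reads 6 of the 9 were below 0 (5 of 8 without *Galntl6*), where 48.2% of all genes were, with *Galnt14*, *Galnt16* and *Galnt18* above 0. On the log2(normalized count + 1) scale they were below 0 for 4 of 9 in the *Mtg8* table, with a median of 0.04, where 51.5% of all genes lay below 0.

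The 3 members with the highest mean level per kilobase of exon in controls, *Galnt1*, *Galnt7* and *Galnt11*, overlapped between groups in both tables. *Galnt1*, a widely expressed enzyme that acts on bare peptides, had 679.7, 544.2, 590.5 and 851.8 normalized counts in *Lhx6* controls and 420.7, 769.2, 749.8, 481.5 and 551.0 in mutants. Mutants 2, 3 and 6 lay within the control range and mutants 1 and 5 below it, with a log2 difference of -0.18 (SE 0.21). Its levels in the *Mtg8* controls were 460.5, 567.3 and 328.7 and in the labelled mutants 370.4, 335.4 and 323.4, a difference of -0.36 (SE 0.25) with control 4 among the labelled mutants.

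*Galnt7*, which prefers peptides that already carry a GalNAc, had 275.9, 375.8, 336.2 and 479.8 in *Lhx6* controls and 205.4, 267.5, 448.9, 255.7 and 313.3 in mutants. Mutant 3 was above 3 of the 4 controls, and the log2 difference was -0.32 (SE 0.24). Its *Mtg8* means were 469.0 ± 43.73 and 487.7 ± 102.7 (SD, n = 3 each), with labelled mutant 2 the highest library at 606.1. Within name styles the *Mtg8* differences of 4 members had opposite signs in dated and undated libraries, namely *Galnt7* (0.44 and -0.27), *Galnt9* (0.41 and -0.12), *Galnt11* (-0.05 and 0.19) and *Galnt14* (-0.62 and 0.21), and *Galnt1* gave -0.46 and 0.00. The neighbour of *Galntl6* on chromosome 8 thus kept overlapping groups in both tables.

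*Galnt11*, known for modifying the linkers between ligand-binding repeats of LDL receptor family proteins, had 651.8 in *Lhx6* control 1 and 451.4 to 469.5 in the other 3. Mutants 1, 2, 3, 5 and 6 had 400.9, 289.7, 631.5, 384.6 and 422.2, a log2 difference of -0.29 (SE 0.22). The 1 mutant above the lower controls was mutant 3. *Mtg8* controls ranged from 289.5 to 362.9 and the labelled mutants from 303.6 to 462.5, a difference of 0.17 (SE 0.24).

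Among the less abundant members, *Galnt13*, a neuronal relative of *Galnt1*, ranged from 38.11 to 95.17 normalized counts in *Lhx6* controls and from 16.1 to 82.34 in mutants, a log2 difference of -0.71 (SE 0.47), which was -1.03 to -0.45 as each library was left out and -1.74 for mutant 6 alone. For the *Mtg8* comparison it had 40.24, 60.79 and 44.02 in controls and 65.7, 60.66 and 84.09 in labelled mutants, a difference of 0.54 (SE 0.33). The highest control lay just above the lowest labelled mutant, so these groups overlapped.

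*Galnt14* and *Galnt18* were not read at all in *Lhx6* mutant 1, and the sign of their differences changed with the libraries and the scale used. *Galnt14*, of the same branch of the family as *Galnt2*, had 60.56, 27.47, 49.75 and 49.6 in *Lhx6* controls and 0, 77.75, 43.78, 75.56 and 106.5 in mutants 1, 2, 3, 5 and 6. Its mutant mean was 129.6% of the control mean, while the log2 difference was -0.57 (SE 1.11) with all libraries and 0.67 without mutant 1, and fitted to the recovered reads with mutant 1 kept it was 0.37 by DESeq2. A count of 0 reads allows up to 3 reads in that library. *Galnt14* in the *Mtg8* table ranged from 35.21 to 65.95 in controls and from 34.0 to 48.92 in labelled mutants, a difference of -0.35 (SE 0.37).

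*Galnt18* was the sparsest member that reached the minimum. *Lhx6* controls had 21.15, 6.204, 23.95 and 4.276 normalized counts and mutants 0, 7.405, 81.96, 17.44 and 8.667, so that mutant 3 held more than the other 4 mutants together. The log2 difference was -0.2 (SE 1.07), and it was 0.64 without mutant 1, 0.09 without control 1, 0.15 without control 3, 0.12 at a pseudocount of 10 and 0.74 by DESeq2 with all libraries. The *Mtg8* controls had 33.53, 36.26 and 10.76 and the labelled mutants 64.57, 34.92 and 35.93, a difference of 0.84 (SE 0.5), or 0.3 without control 4, with control 1 and control 2 next to the lower labelled mutants.

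*Galnt16* had 267.3, 210.0, 235.8 and 207.0 in *Lhx6* controls and 320.5, 400.8, 338.1, 244.1 and 131.2 in mutants. Mutants 1, 2 and 3 were above all controls and mutant 6 below them, with a log2 difference of 0.23 (SE 0.29), and mutant 6 alone gave -0.80. Its *Mtg8* means were 353.2 in controls and 373.0 in labelled mutants, 0.07 apart on the log2 scale (SE 0.25). *Galnt2*, a widely expressed transferase elsewhere in the body, had 1.923, 3.545, 0 and 1.71 in *Lhx6* controls and 0, 0.926, 4.657, 0 and 0 in mutants, near the floor of 3 reads, so no fold is given. In the GENCODE annotation 90% of its exon bases also belong to the readthrough gene *Gm20388* on the same strand, which was not analysed here, so its count may leave out reads that both genes share.

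**Figure D2:**
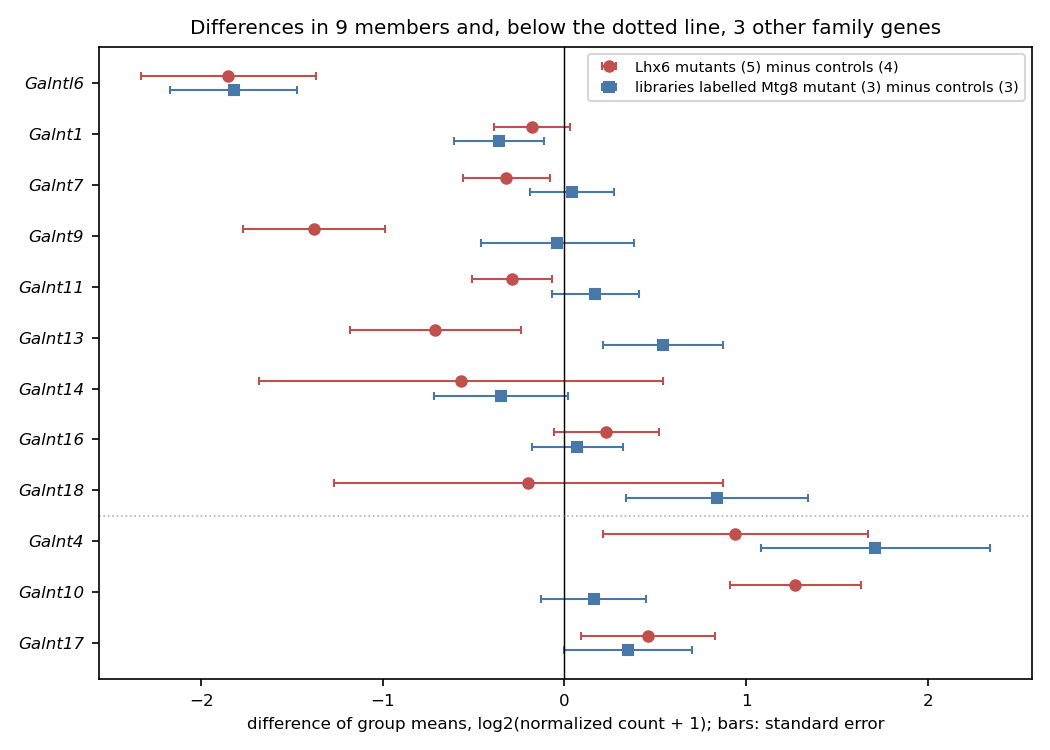
Difference of group means on the log2(normalized count + 1) scale, with its standard error, for 9 members and, below the dotted line, 3 other genes of the family tested in both tables (circles, *Lhx6* mutants minus controls; squares, libraries labelled *Mtg8* mutant minus controls; 0, no difference). *Galntl6* lies near -1.8 in both comparisons, *Galnt9* at -1.38 in the *Lhx6* comparison, and *Galnt10* at 1.27 there.

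Levels of the members in control libraries were compared per kilobase of exon, so that genes of different length can be set side by side. They are levels in the sorted samples, in which markers of other cell types were also read. In *Lhx6* controls *Galnt1* was highest with 120.8 ± 24.59 normalized counts per kb (SD, n = 4). It was followed by *Galnt11* with 74.35, *Galnt7* with 69.85, *Galnt9* with 36.48, *Galnt16* with 28.58, *Galntl6* with 15.27, *Galnt14* with 7.943, *Galnt13* with 7.623, *Galnt18* with 5.396 and *Galnt2* with 0.4191. The place of *Galnt2* is uncertain, since its count may leave out reads shared with *Gm20388*. The ranges of *Galnt11* and *Galnt7*, of *Galnt9* and *Galnt16*, of *Galnt14* and *Galnt13*, and of *Galnt13* and *Galnt18* overlapped, and the other neighbours in this order lay apart in all 4 controls.

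In *Mtg8* controls *Galnt7* had 89.28 ± 8.325 and *Galnt1* 81.93 ± 21.66 normalized counts per kb (SD, n = 3 each), with overlapping ranges. *Galnt11* had 48.44 and *Galnt16* 43.89, in this order in 2 of the 3 controls, followed by *Galntl6* with 24.7, *Galnt9* 14.81, *Galnt18* 10.43, *Galnt14* 9.153 and *Galnt13* 6.191. *Galntl6* lay apart from both its neighbours in this order, *Galnt16* above and *Galnt9* below, and the ranges of neighbours from *Galnt9* downwards overlapped. The 2 tables were normalized separately, so these levels per kb are not compared between them.

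*Galntl6* was a small part of the family's RNA. Over the 17 family genes of the *Lhx6* table the summed level per kb was 397.5 ± 45.47 in controls and 372.2 ± 77.58 in mutants, and over the 15 of the *Mtg8* comparison it was 356.8 ± 27.38 and 349.8 ± 35.32 (SD), with overlapping ranges in both. The former includes *Galnt2*, whose count may leave out shared reads, and the latter does not include it, so both sums and the shares below may miss part of the family's RNA. *Galntl6* made up 3.238% to 4.823% of that sum in *Lhx6* controls and 0.522% to 2.683% in mutants, and 5.3% to 8.629% against 1.413% to 2.463% in the *Mtg8* table. *Galnt1*, *Galnt7* and *Galnt11* together made up 54.8% to 72.62% over all *Lhx6* libraries and 58.71% to 64.08% over all *Mtg8* libraries.

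**Figure D3:**
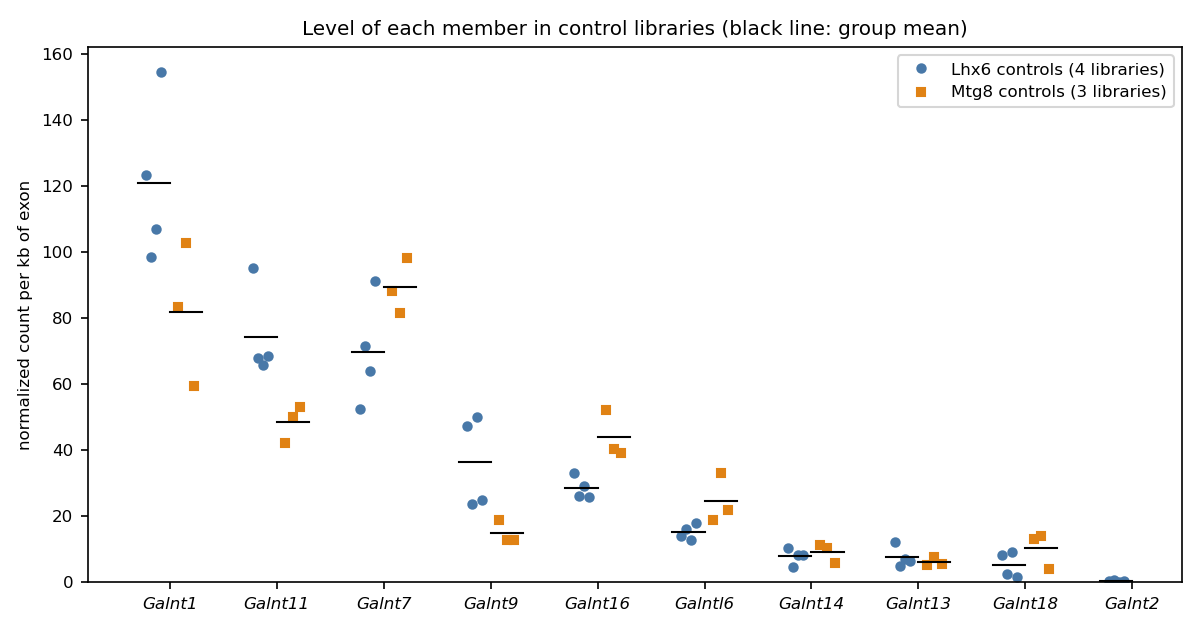
Normalized count per kb of exon for each member (horizontal axis, in the order of the *Lhx6* controls) in the control libraries of each table, 1 point per library, with the group mean as a black line. *Galnt1*, *Galnt11* and *Galnt7* have the 3 highest means in both tables, with *Galnt16* above *Galnt11* in 1 of the 3 *Mtg8* controls, and *Galntl6* averages 15.27 and 24.7.

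At the start of *Galntl6* lies *BC030500*, a protein-coding gene on the other strand that was singled out after its values were seen. It spans 58911755 to 58914298 on the plus strand, and its start is 128 bases from the RefSeq start of *Galntl6* at 58911627, so that the 2 genes point away from each other there. In the GENCODE annotation *Galntl6* reaches further, to 58912640, and shares 330 exon bases with *BC030500*, 4.45% of the exon bases of *Galntl6*, where *BC030500* has 1769 exon bases in all. The kits used for the libraries (low-input cDNA, then Nextera XT) do not mark strand, so reads from these shared bases cannot be assigned to either gene.

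*BC030500* fell in the *Lhx6* mutants. Controls 1 to 4 had 99.02, 93.94, 112.4 and 93.22 normalized counts. Mutants 1, 2, 3, 5 and 6 had 21.04, 0, 0, 3.875 and 14.86, all below every control and with 0 reads in mutants 2 and 3. Controls averaged 99.64 ± 8.882 (SD, n = 4) and mutants 7.954 ± 9.513 (SD, n = 5), a log2 difference of -4.50 (SE 0.90, adjusted p = 0.0215 by limma, 0.0474 by edgeR and 0.000523 by DESeq2). The size depends on the scale, since 2 mutants held no read. It was -2.77 at a pseudocount of 10, -3.71 by edgeR and -3.68 by DESeq2. By limma the call was lost without any one control (adjusted p = 0.0777 to 0.0888) and without mutant 5 (adjusted p = 0.0517), while the difference in these fits was -4.54 to -4.44 at the same pseudocount of 1, and mutant 6 alone against the controls gave -2.66 (adjusted p = 1.0 with the name style as a covariate in limma). Mutants 2 and 3, with no read of *BC030500*, were not the lowest mutants for *Galntl6*, and those were mutants 1 and 5.

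*BC030500* in the *Mtg8* table had 121.8, 130.1 and 71.41 in controls and 37.38, 67.09 and 58.1 in labelled mutants. All 3 labelled mutants were below all 3 controls, where 5.52% of all genes showed this. The log2 difference of -0.97 (SE 0.36) did not pass the test (adjusted p = 0.859 by limma). Across the 9 libraries of the *Lhx6* table the Pearson r of *BC030500* with *Galntl6* was 0.52, and across the 6 of the *Mtg8* table it was 0.70, both given as descriptions of libraries that fall into 2 groups. Exons of the other strand also touch *Galnt2* (154 bases, *1810008B01Rik*), *Galnt7* (98 bases, *AW046200*), *Galnt11* (306 bases, *E130116L18Rik*), *Galnt14* (36 bases, *AC107792.1*) and *Galnt16* (487 bases, *Gm26777*, and 145 bases, *4933406B15Rik*). There too reads of the strands cannot be told apart.

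**Figure D4:**
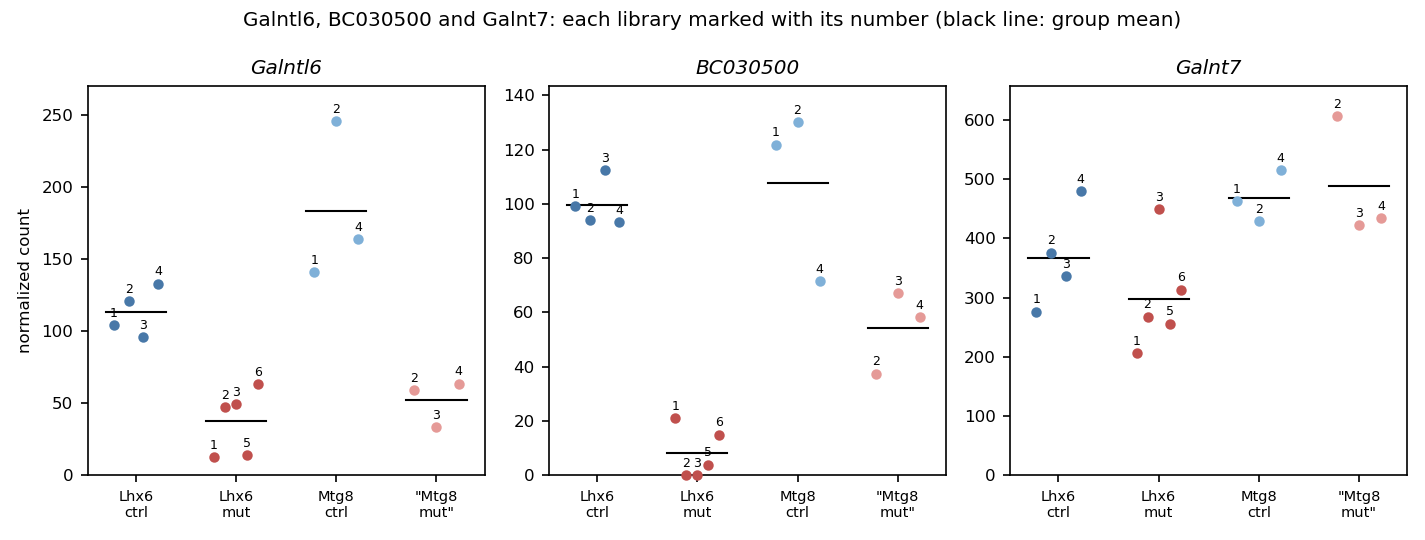
Normalized count (vertical axes, from 0) of *Galntl6*, *BC030500* and *Galnt7*, which lie next to each other on chromosome 8, in each library, numbered as in the labels, with group means as black lines. *Galntl6* and *BC030500* are below all controls in every *Lhx6* mutant and every library labelled *Mtg8* mutant, while *Galnt7* overlaps between groups.

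The 5 genes most like *Galntl6* were those with the highest value of the lower of 2 Pearson correlations with it, one over the 9 *Lhx6* libraries and one over the 6 *Mtg8* libraries, among 15628 genes tested in both. They were *Parp8* (0.902 and 0.866), *Xpnpep1* (0.884 and 0.865), *Glb1* (0.84 and 0.936), *Nxph2* (0.837 and 0.913) and *Zfp14* (0.865 and 0.83). *Parp8* belongs to the ADP-ribosyltransferases, *Xpnpep1* encodes an aminopeptidase, *Glb1* the lysosomal beta-galactosidase, *Nxph2* a secreted neurexophilin and *Zfp14* a zinc finger protein. Mean normalized counts of *Nxph2* were 3013 in *Lhx6* controls and 432.2 in mutants, and 5790 and 3916 in the *Mtg8* table, and those of *Parp8* were 230.9 and 90.33, and 327.2 and 258.2. Points of the same group share a genotype, so these correlations contain the difference between groups. No member was among these genes, and over the other members the lower correlation ranged from -0.50 for *Galnt13* to 0.64 for *Galnt1*.

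The other genes of the family and the pathway around it were taken from lists fixed by gene name. Of 9 further polypeptide GalNAc transferases, 4 were tested in the *Lhx6* comparison and 3 in the *Mtg8* comparison. Limma called 0 in both, where it called 1.71% of all genes in the *Lhx6* and 0% in the *Mtg8* comparison. At an unadjusted p under 0.05 there was 1 in each, where 12.7% and 5.49% of all genes passed. EdgeR called 0, where 1.67% and 0.0062% of all genes were called, and DESeq2 called *Galnt10* in the former, where 4.78% and 0.192% were called. *Galnt10*, which like *Galnt7* prefers glycosylated peptides, had 99.02, 54.95, 130.8 and 138.5 in *Lhx6* controls and 226.4, 273.0, 341.8, 349.7 and 112.7 in mutants. Mutant 6 lay among the controls and the other 4 mutants above them all. The log2 difference was 1.27 (SE 0.36) with an adjusted p = 0.126 by limma, 0.105 by edgeR and 0.0118 by DESeq2, and without mutant 6 it was 1.55 with an adjusted p = 0.0197 by limma. With the name style as a covariate, where mutant 6 alone is set against the controls, it was 0.17 (adjusted p = 1.0 by limma). *Galnt10* in the *Mtg8* table differed by 0.16 (SE 0.29, adjusted p = 0.947 by limma). *Galnt4*, another enzyme of glycosylated peptides that shares 420 exon bases with *Poc1b* on the same strand, gave 0.94 (SE 0.73, adjusted p = 0.607 by limma) and 1.71 (SE 0.63, adjusted p = 0.859), and the former was 0.19 without *Lhx6* control 2. The *Mtg8* value was 2.96 within dated libraries and -0.16 within undated ones. *Galnt17* gave 0.46 (SE 0.37) and 0.35 (SE 0.35), and *Galnt15*, tested in the *Lhx6* table only, gave 0.39 (SE 1.08), below 0 without control 1. *Galnt3*, *Galnt6* and *Galnt12* stayed below the minimum where they had a row, and *Galnt5* and *Galntl5* were not analysed here.

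Enzymes that extend or sialylate the first GalNAc showed no called gene in either table by limma, edgeR or DESeq2. Of all genes, these tools called 1.71%, 1.67% and 4.78% for *Lhx6* and 0%, 0.0062% and 0.192% for *Mtg8*. At an unadjusted p under 0.05, 0 of these enzymes passed, where 12.7% and 5.49% of all genes did. Of 10 tested in the *Lhx6* table, 6 had differences above 0, with a median of 0.17, between -0.79 for *St6galnac4* (SE 0.50, adjusted p = 0.532 by limma, and -0.26 without mutant 1) and 0.75 for the sialyltransferase gene *St6galnac3* (SE 0.35, adjusted p = 0.402). Of 10 tested in the *Mtg8* table, 4 were above 0, with a median of -0.16, between -0.66 for *St3gal2* (adjusted p = 0.859 by limma) and 0.94 for *St3gal1* (adjusted p = 0.859). Of all genes, 53.4% in the *Lhx6* and 51.5% in the *Mtg8* table lay below 0. *C1galt1*, the galactosyltransferase that makes the common core structure, was added after its values were seen and gave 0.67 (adjusted p = 0.44 by limma) and -0.58 (adjusted p = 0.861).

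Genes that supply UDP-GalNAc and carry nucleotide sugars into the Golgi likewise held no called gene by the 3 tools, beside the same shares of all genes. At an unadjusted p under 0.05 there was *Pgm3* alone, in the *Lhx6* table, where 12.7% of all genes passed, and 5.49% for *Mtg8*. Of 9 tested in each table, 7 were below 0 in each, with medians of -0.12 and -0.19, where 53.4% and 51.5% of all genes lay below 0. In the *Lhx6* table *Pgm3*, a mutase of the hexosamine pathway, gave -0.64 (SE 0.26, adjusted p = 0.313 by limma) and *Gfpt1*, the first enzyme of that pathway, 0.23 (SE 0.17, adjusted p = 0.598). In the *Mtg8* table *Galk2* gave -0.39 (adjusted p = 0.859 by limma) and *Slc35a3* 0.61 (adjusted p = 0.866). Groups there did not overlap, with labelled mutants lower, for 2 of the 9 (*Galk2* and *Slc35a1*), where 5.52% of all genes showed this. They also stood apart with labelled mutants higher for *Slc35a3*, for which the share over all genes is not given here.

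Among GalNAc transferases of other acceptors, which build chondroitin chains and glycolipids, limma and edgeR called 0 of 10 in the *Lhx6* table and 0 of 9 for *Mtg8*, with 5 below 0 in each. Of all genes, 53.4% and 51.5% lay below 0. At an unadjusted p under 0.05 there were 2 (*Chsy1* and *Chsy3*) and 0, where 12.7% and 5.49% of all genes passed. *Chsy1*, a chondroitin synthase singled out after its values were seen, was higher in all 5 *Lhx6* mutants than in all controls (781.3 to 1237 against 609.5 to 772.9), where groups did not overlap with mutants higher for 3.19% of all genes. Its log2 difference was 0.58 (SE 0.16), with an adjusted p = 0.124 by limma and 0.0157 by DESeq2, and with the name style as a covariate it was 0.14 (adjusted p = 1.0 by limma). *Csgalnact1* gave 1.23 (SE 1.01), and 0.4 without control 4, which held no read of it, and *Chpf2* -0.57 (SE 0.36, adjusted p = 0.534 by limma) for *Lhx6*. For *Mtg8*, *Chsy3* gave -0.57 (adjusted p = 0.872 by limma) and *Chpf* 0.61 (adjusted p = 0.859). Groups there did not overlap, with labelled mutants lower, for 2 of the 9 (*B3galnt1* and *Chsy3*), where 5.52% of all genes showed this.

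Of proteins of neurons known to carry O-GalNAc sugars, the very low density lipoprotein receptor gene *Vldlr*, a Reelin receptor, rose in the *Lhx6* mutants. It had 891.6 to 1070 normalized counts in the 4 controls and 1946 to 3592 in the 5 mutants, with a mean 283.6% of that of controls. The log2 difference was 1.47 (SE 0.17, adjusted p = 0.000488 by limma, where 1.03% of all genes were called higher), and with the name style as a covariate it was 1.04 (adjusted p = 0.186). It was the 1 gene called among the 12 carriers tested, of which 11 had differences above 0 with a median of 0.19, and *Nrg1*, a ligand of ErbB receptors, was the exception at -0.48 (SE 0.21, adjusted p = 0.371 by limma). Of all genes in the *Lhx6* table, 53.4% lay below 0. Several carriers differed by little beside their SE, such as *App* at 0.16 (SE 0.14) and *Sorl1* at 0.11 (SE 0.26), and nothing is read from the count of signs. For the *Mtg8* comparison limma, edgeR and DESeq2 called 0 of 11 carriers, where they called 0%, 0.0062% and 0.192% of all genes. At an unadjusted p under 0.05 there was 1, *Nrg1*, where 5.49% of all genes passed. Of the 11 carriers, 9 were below 0 with a median of -0.17, where 51.5% of all genes lay below 0. Groups did not overlap, with labelled mutants lower, for 1 of the 11, *Lrp1*, where 5.52% of all genes showed this. *Vldlr* gave -0.17 (adjusted p = 0.929 by limma), *Aplp1*, of the amyloid precursor family, the lowest value of -0.29 (adjusted p = 0.88) and *Nrg1* the highest of 0.87 (SE 0.30, adjusted p = 0.859).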

How the data were processed

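YFP+ cells of single E14.5 cortices were sequenced as low-input cDNA. Trimming by the authors used fastp 0.20.1, alignment STAR 2.7b and counting FeatureCounts 1.6.4. Sex-linked genes were removed by a GENCODE annotation of GRCm38.p6. The signal that the authors deposited is each gene's count divided by a DESeq2 size factor, in a separate table per comparison. The authors also deposited for each gene a log2 fold change and its SE, a Wald statistic (a score), and raw and adjusted p-values, and none of these was used. All values were whole multiples of 1 read within 0.01, so reads were recovered. Precision is set by the number of embryos, and floors of 3 reads cover counting error only.

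Limma 3.58.1 (R 4.3.3) was fitted with a mean-variance trend to log2(normalized count + 1), for all genes of a table with a mean of at least 10, as a two-sided test. An adjusted p (Benjamini-Hochberg, over all genes tested) under 0.05 was a call. The alternatives were count tests on the recovered reads (DESeq2 1.42.0, and the quasi-likelihood test of edgeR 4.0.16), other pseudocounts, minimums and scalings, a replicate block, the name style and leaving out each library. The fits were tested on simulated counts. The members and gene lists were chosen with earlier results of these data known. Named by rule were all family genes, in each list called genes and the highest and lowest difference, the 5 genes most like *Galntl6* and the targeted genes. Some other genes, among them *C1galt1*, *BC030500*, *Sst* and *Npy*, were added after their values were seen. Promoter windows are from RefSeq, and exon overlaps were checked in GENCODE vM21, whose gene ends matched the deposited ones for the family.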

Additional observations from a re-analysis of the deposited data

Results flagged for a closer look

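In 4 of 48 groups of 4 or 5 libraries, 1 library lay far from the rest of its group by Dixon's ratio, where chance gives about 1 in 20. *Galnt11* was at 651.8 normalized counts in *Lhx6* control 1, with the next control at 469.5. *Csgalnact1* was at 0.0 in *Lhx6* control 4, with the next at 7.976. *Galnt2* was at 4.657 in *Lhx6* mutant 3, with the next at 0.9256. *Galnt18* was at 81.96 in the same mutant, with the next at 17.44. Family genes below the minimum are not in this list, apart from *Galnt2*. Among them *Galnt6* was at 18.57 in *Lhx6* mutant 6 and *Galnt3* at 12.96 in *Lhx6* mutant 2, each with 0 in the other mutants.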

How the results depend on the processing

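Log2 differences of *Galntl6* stayed below 0 under all alternatives in both comparisons, from -2.11 to -0.82 and from -1.99 to -1.53. In the *Lhx6* comparison limma called 286 of all genes. DESeq2 called 796, the replicate block 86, the name style as a covariate 57, and leaving out 1 library gave 159 to 492, the highest without mutant 6. Of the genes of the family and pathway lists outside the members 1 was called, with 3 by DESeq2, 0 with the name style as a covariate, and 1 to 3 as libraries were left out, where 3 came without mutant 6 (*Vldlr*, *Galnt10* and *Chsy1*). In the *Mtg8* comparison 0 genes were called, with 1 without a minimum, 2 at a minimum mean of 50, 1 by edgeR, 31 by DESeq2, 100 with the replicate block, and 0 to 87 as libraries were left out, the highest without labelled mutant 2. The order of members by level kept 5 to 9 of 9 places as *Mtg8* controls were left out, with 5 without control 4. Differences of named genes turned sign as follows. In the *Lhx6* comparison *Galnt1* was 0.05 with the replicate block. *Galnt14* was 0.38 by edgeR, 0.37 by DESeq2 and 1.22 with the name style as a covariate, and -1.01 to 0.67 as libraries were left out. *Galnt16* was -0.8 with the name style. *Galnt18* was 0.12 at a pseudocount of 10, 0.73 by edgeR and 0.74 by DESeq2, and -0.95 to 0.64 as libraries were left out. *Galnt15* was -0.56 with the name style and -0.22 to 1.18 as libraries were left out, and *Gfpt1* was -0.16 with the name style. In the *Mtg8* comparison *Galnt7* (-0.13 to 0.13), *Galnt9* (-0.32 to 0.34) and *Galnt16* (-0.07 to 0.24) crossed 0 as libraries were left out, and *Galnt9* also under 5 other settings, at 0.02 to 0.14. The cause was not tested in any of these.

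Replicate numbers were taken from the labels. Deviations of same-numbered libraries correlated at -0.154 to 0.072 over 3 pairs in the *Lhx6* table, within the -0.207 to 0.184 of differently numbered ones. In the *Mtg8* table they correlated at 0.138 and 0.159, above the -0.18 to 0.078 of differently numbered ones, but these are 2 pairs and no label says what a number shares. The numbers were therefore not treated as pairs in either table. With the block *BC030500* was no longer called (-5.19, adjusted p = 0.096 by limma), as also without the mean-variance trend, where its difference was unchanged at -4.50, and *Vldlr* was still called.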

Other observations

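The level of *Galnt9* in controls differed between the 2 experiments, which were normalized separately. In CPM, computed from the recovered reads and each library's total, it was 4.746 to 9.921 in the 4 *Lhx6* controls and 1.983 to 3.16 in the 3 *Mtg8* controls, a range that the 5 *Lhx6* mutants, at 1.309 to 3.898, overlapped. *Galnt11* showed the same order, with 29.82 to 43.11 CPM in *Lhx6* controls and 16.05 to 18.86 in *Mtg8* controls, and so did *Galnt1*, with 36.42 to 55.0 and 17.08 to 30.25. *Galntl6*, *Galnt7*, *Galnt13*, *Galnt14*, *Galnt16* and *Galnt18* overlapped between the 2 sets of controls. Thus 3 of 9 members were higher in all *Lhx6* controls than in all *Mtg8* controls, where 30.4% of 15629 genes were, and 0 of 9 were lower in all, where 16.7% of genes were. The members' share was near that of all genes, and the differences were not tested. Pyramidal marker sums, normalized separately, were 16990 to 22540 in *Lhx6* controls and 5843 to 14270 in *Mtg8* controls. Their part in these differences was not tested.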
